A study of Rattus norvegicus with 32 samples.

Results

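The elastic fibre and lysyl oxidase genes were followed in RNA-seq libraries of rat liver sinusoidal endothelial cells (LSECs), the fenestrated cells that line the hepatic sinusoids. The set was named by gene symbol and held 10 genes. Its 6 fibre genes were Eln, Fbn1, Fbln2, Fbln5, Emilin1 and Mfap4, and its 4 cross-linking genes were Lox, Loxl1, Loxl2 and Loxl3. Of these, 9 were found among the 32623 genes of each file and Mfap4 was not analysed here. Eln was chosen by its measured fall in the libraries of 2 and 6 weeks, so every Eln value that rests on those libraries is a description with no test, and counts of called genes are over the other 8 genes.

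The study followed chronic liver disease in Wistar Han rats that inhaled carbon tetrachloride (CCl4). The groups were healthy, untreated rats (n = 6), rats treated for 2 weeks (acute, n = 5), rats treated for 6 weeks (fibrosis, n = 5) and rats treated for 12 to 14 weeks (cirrhosis, n = 6). In the CCl4 model the drinking water held phenobarbital, and cells were taken some days after the last dose of the toxicant. A further experiment compared a group labelled control (n = 5) with a group labelled TAA control (n = 5), where TAA is thioacetamide, another liver toxicant. The study set healthy against TAA-cirrhotic rats there, but the labels do not settle which of these 2 groups received TAA, and they give a strain (Wistar Han) other than that of the series text (Sprague-Dawley). These groups are therefore named by their labels only. LSECs of all groups were obtained by liver perfusion, digestion and an iodixanol density gradient, with no sorting step named in the labels, so each library can hold other liver cells.

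Elastin is secreted as a soluble monomer and laid down on microfibrils built of fibrillin. Fibulins, emilin and microfibril-associated proteins help to place the monomer on that scaffold, and copper-dependent lysyl oxidases then cross-link it, which makes the fibre insoluble and elastic. In the liver, elastic fibres lie in portal tracts and vessel walls and accumulate in the scars of fibrotic livers, where they are turned over slowly.

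Each library held 25646531 to 46464289 expected counts. Levels are given as CPM, in which each library's counts are divided by its total after TMM scaling and set to a common size, separately for the 22 libraries of the CCl4 model and the 10 of the TAA experiment. They are not corrected for gene length, so levels of different genes are not compared. A gene was called when its adjusted p was under 0.05 and its fold change above 1.5. A filter on low counts came first, and a gene could pass it through only the group where it was higher. The acute and fibrosis libraries stood apart from the others. The summed level of 9 LSEC marker genes was 12810 to 22830 CPM in healthy libraries, 2123 to 2538 CPM in acute, 1492 to 2357 CPM in fibrosis and 12070 to 15280 CPM in cirrhosis. None of the 9 markers was at 0 throughout a group. Against healthy, 8 of the 9 were called lower in acute libraries and 1 not, and all 9 were lower at fibrosis. Stab2, a scavenger receptor that defines LSECs, averaged 3483 CPM in healthy, 147.9 CPM in acute, 179.7 CPM in fibrosis and 3295 CPM in cirrhosis libraries. Lyve1 moved less, with means of 1343, 848.8, 587.2 and 2004 CPM in these groups. Over 7 measured pan-endothelial markers the sum was 6719 to 12610 CPM in healthy, 2673 to 3692 CPM in acute, 1988 to 2524 CPM in fibrosis and 6713 to 8407 CPM in cirrhosis libraries. In acute libraries 5 of these 7 were called lower, 1 higher and 1 not, and at fibrosis 5 were lower and 2 not called. Kdr and Tie1, at means of 3644 and 3394 CPM, made up most of the healthy pan-endothelial sum and averaged 236.5 and 410.1 CPM in acute libraries. Cdh5 averaged 1294 CPM in healthy and 1597 CPM in acute libraries. In the 10 acute and fibrosis libraries, 10 genes were listed at 0 that exceeded 1 CPM in each of the 12 healthy and cirrhosis libraries, and 2 genes showed the opposite. Hnrnpab and Chchd2, at means of 108.7 and 93.4 CPM in healthy libraries, were among those listed at 0. Whether the acute and fibrosis files were quantified in the same way as the others was not tested, and every level and fold change of these 2 groups carries that limit. The part that the differences in markers play in the results on these groups was not tested either, and the groups cannot be told apart from whatever else set those libraries apart.

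Eln (ENSRNOG00000001469), which encodes elastin itself, was high in healthy and cirrhotic LSECs and at 1.11 CPM or less in every library of 2 and 6 weeks. In healthy libraries it ranged from 102.5 to 252.7 CPM with a median of 207.6 CPM. The acute libraries held 0.463, 0.409, 0.25, 0.161 and 0.221 CPM, and the fibrosis libraries 0.631, 0.905, 0.732, 0.804 and 1.11 CPM. These levels rested on 7 to 17 counts per acute library and 22 to 38 counts per fibrosis library, against at least 2867 counts in each healthy library. In cirrhosis libraries Eln ranged from 111.5 to 422.4 CPM with a median of 185.2 CPM. No acute or fibrosis library came near the lowest healthy or cirrhotic one, while the healthy and cirrhotic ranges overlapped. On the log2 scale the mean difference from healthy was -9.27 (SE 0.50) for acute and -7.72 (SE 0.41) for fibrosis libraries. Cirrhosis differed from healthy by 0.18 (SE 0.34, limma-voom adjusted p = 0.658), which is within the spread between libraries. The fall by which Eln was chosen is seen against healthy libraries, so this test shares values with that choice and carries that limit.

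**Figure D1:**
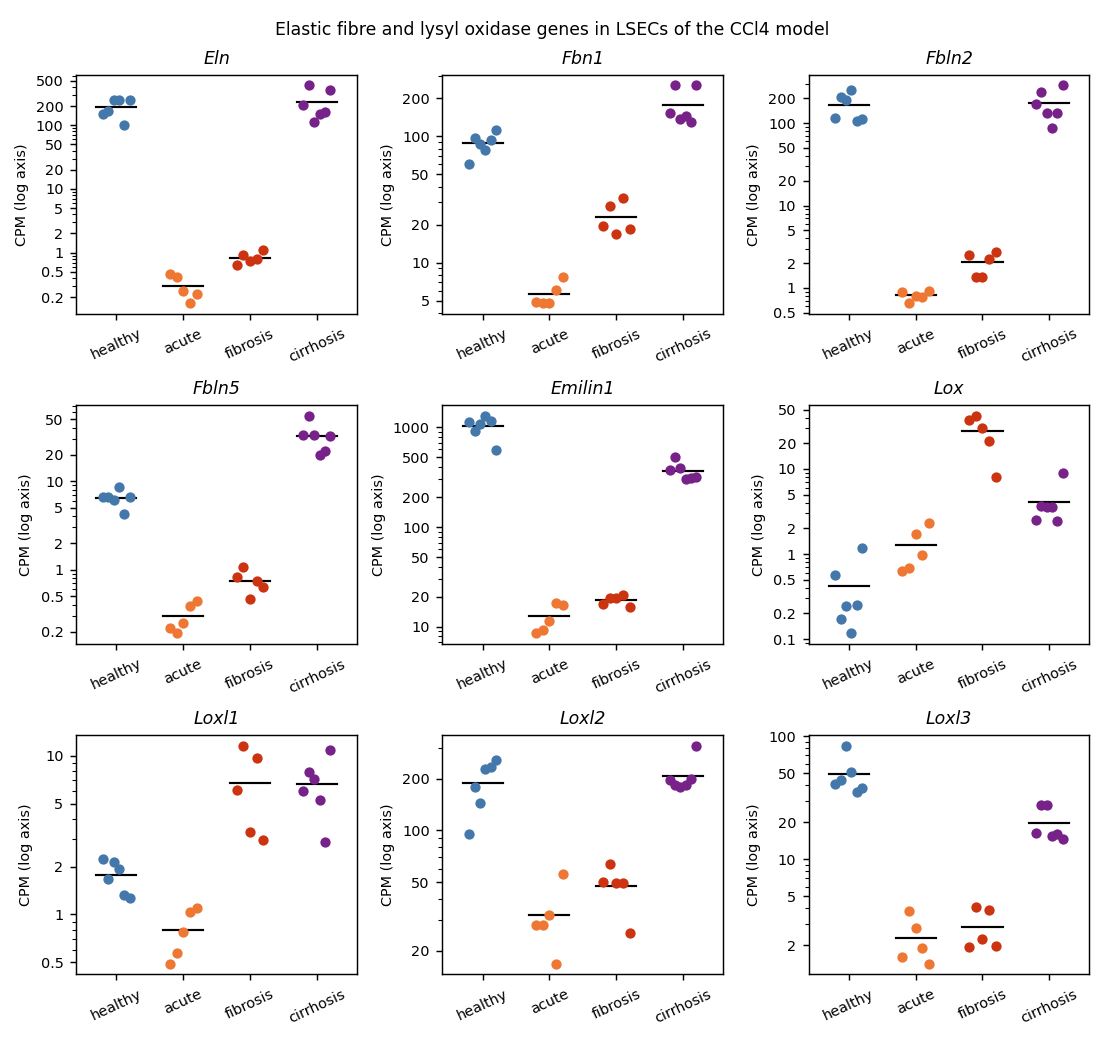
Level of each gene in every library of the CCl4 model, in CPM on a log axis, with 1 panel per gene, 1 point per library and a black line at the group mean. Eln, Fbln2 and Emilin1 drop by far in the acute and fibrosis libraries, while Lox is highest at fibrosis, between 7.99 and 42.4 CPM.

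The other 4 fibre genes were all lower than healthy in acute and in fibrosis libraries, and none of their ranges overlapped with the healthy range. In acute against healthy LSECs, 7 of the 8 tested genes of the whole set were called lower and 1 higher, with a median log2 fold change of -4.16. The background was broad, since 73.4% of all 14317 genes tested were called in that comparison, 35.5% higher and 37.9% lower, and the median over all genes was -0.09. In 7 of the 8 genes the acute and healthy libraries did not overlap, against 60% of all genes tested. In fibrosis against healthy, 6 of the 8 were lower and 2 higher, with a median of -2.47, where 70.2% of 14538 genes were called, 35.3% higher and 34.9% lower, and the median over all genes was -0.03. None of the 8 overlapped between fibrosis and healthy libraries, against 58.7% of all genes tested with no overlap. These percentages are shares of all genes tested.

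Fbln2 (ENSRNOG00000007338), a fibulin that binds elastin and basement membrane proteins, followed Eln most closely among the members. It ranged from 105.8 to 252.6 CPM with a median of 153.1 CPM in healthy libraries. The acute libraries held 0.899, 0.654, 0.806, 0.783 and 0.916 CPM, a 185-fold lower level (log2 fold change -7.53, SE 0.40, adjusted p = 1.26e-08). All 5 acute libraries lay under 1 CPM. The fibrosis libraries held 2.52, 1.34, 1.36, 2.24 and 2.71 CPM (log2 fold change from healthy -6.22, SE 0.37, adjusted p = 3.64e-08). In cirrhosis Fbln2 was at 87.1 to 287.1 CPM with a median of 151.2 CPM, and it did not differ from healthy beyond the spread (0.07, SE 0.31, adjusted p = 0.869).

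Emilin1 (ENSRNOG00000008246), a glycoprotein found where elastin meets the microfibril, fell steeply at 2 and 6 weeks and was still below healthy in cirrhosis. Its healthy level of 595.1 to 1309 CPM (median 1102 CPM) compared with 8.60, 9.34, 11.5, 17.5 and 16.6 CPM in acute libraries and 16.9, 19.6, 19.3, 20.7 and 15.8 CPM in fibrosis libraries. The log2 fold changes from healthy were -6.33 (SE 0.25, adjusted p = 2.26e-09) and -5.70 (SE 0.20, adjusted p = 1.81e-09). In cirrhosis it reached 303.1 to 498.3 CPM with a median of 343.8 CPM, below all healthy libraries (-1.47, SE 0.21, adjusted p = 0.000163).

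Fbn1 (ENSRNOG00000007302), which encodes the main microfibril protein fibrillin-1, and Fbln5 (ENSRNOG00000050539), a fibulin needed for elastic fibre assembly, shared another course, below healthy at 2 and 6 weeks and above healthy in cirrhosis. Fbn1 was at 61.0 to 112.3 CPM in healthy libraries (median 90.35 CPM) and at 4.85, 4.79, 4.78, 6.10 and 7.67 CPM in acute libraries. In fibrosis it stood at 19.7, 28.3, 16.9, 32.7 and 18.6 CPM, and in cirrhosis at 130.5 to 253.5 CPM (median 149.3 CPM). Every fibrosis library thus lay between the acute and the healthy range, and every cirrhosis library above the healthy one. Fbn1 changed from healthy by -3.94 (SE 0.21, adjusted p = 1.34e-08) in acute, by -1.88 (SE 0.21, adjusted p = 6.66e-06) in fibrosis and by 0.99 (SE 0.21, adjusted p = 0.00169) in cirrhosis on the log2 scale. Fbln5 was at 4.25 to 8.60 CPM in healthy libraries (median 6.58 CPM), and at 0.218, 0.191, 0.25, 0.392 and 0.442 CPM in acute libraries. The fibrosis libraries held 0.832, 1.06, 0.4656, 0.746 and 0.642 CPM, and cirrhosis libraries 19.9 to 55.2 CPM (median 32.8 CPM). Its acute level rested on only 7 to 17 counts per library. In each comparison with the acute group, Fbln5 therefore passed the filter through the other group, where it was higher, and those calls carry that limit. From acute to fibrosis Fbln5 rose by 1.40 on the log2 scale (SE 0.32, adjusted p = 0.0145), beside 1.36 for Fbln2 and, with no test, 1.6 for Eln. That call of Fbln5 was lost in a single fit over all 4 groups (adjusted p = 0.148). The rise of Fbln5 over healthy in cirrhosis was 4.91-fold (log2 fold change 2.29, SE 0.27, adjusted p = 9.33e-05), with no overlap between the groups.

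Promoters were available from RefSeq (GRCr8, a later build than that of the counts) for 5 of the 10 genes, and 3 are shown, for genes that differed in their levels across groups. Fbln2 was low in acute and fibrosis libraries and not called different from healthy in cirrhosis. Fbln5 was low in the same groups and above healthy in cirrhosis, and Loxl1 was above healthy at fibrosis. Each line gives the 250 bases before the annotated start, 5′ to 3′ on the gene's strand, and capitals mark matches on either strand to a GC box or to a SMAD, TEAD or NF-kappaB motif, none of which overlapped in these windows.
Fbln2: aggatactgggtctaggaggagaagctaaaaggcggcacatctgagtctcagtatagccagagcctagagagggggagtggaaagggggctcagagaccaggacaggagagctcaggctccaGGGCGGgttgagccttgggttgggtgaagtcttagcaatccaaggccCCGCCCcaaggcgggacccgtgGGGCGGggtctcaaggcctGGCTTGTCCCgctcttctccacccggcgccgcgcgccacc
Fbln5: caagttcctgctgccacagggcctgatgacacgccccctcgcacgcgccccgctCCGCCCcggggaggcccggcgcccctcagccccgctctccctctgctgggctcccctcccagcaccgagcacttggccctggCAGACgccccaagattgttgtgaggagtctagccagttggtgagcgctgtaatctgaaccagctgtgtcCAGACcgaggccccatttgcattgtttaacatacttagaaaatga
Loxl1: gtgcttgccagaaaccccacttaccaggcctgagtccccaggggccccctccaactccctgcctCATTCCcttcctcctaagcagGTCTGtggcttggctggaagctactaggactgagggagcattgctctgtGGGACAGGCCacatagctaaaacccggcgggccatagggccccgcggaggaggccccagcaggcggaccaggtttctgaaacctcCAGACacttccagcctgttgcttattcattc
The windows lie at chr4:125261409-125261658 (plus strand) for Fbln2, chr6:126742707-126742956 (minus strand) for Fbln5 and chr8:67612225-67612474 (minus strand) for Loxl1. The GC box GGGCGG occurred 3 times before Fbln2 and 1 time before Fbln5 but not before Loxl1, and it was in 30.5% of all 33469 RefSeq promoter windows of this length. The letters CAGAC, which SMAD proteins can bind, occurred 2 times each before Fbln5 and Loxl1 and were in 42.9% of windows. CATTCC, a TEAD motif, was found 1 time before Loxl1 and in 12.1% of windows, and the loose NF-kappaB motif of 10 letters 1 time each before Fbln2 and Loxl1 and in 16.4%. The AP-1 motif TGANTCA and the TATA box letters TATAAA were searched as well, were in 6.34% and 12.9% of windows, and matched none of the 3. The GC content was 64% for Fbln2, 63.2% for Fbln5 and 60.4% for Loxl1, against a median of 51.2% over all windows. A match is a description of the letters and does not show binding.

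Of the cross-linking genes, Lox (ENSRNOG00000014426), the enzyme that oxidises lysines of elastin and collagen, was higher than healthy in all 3 CCl4 groups. In healthy libraries it was near the limit of detection, at 0.117 to 1.16 CPM with a median of 0.248 CPM and 3 to 45 counts per library. Lox passed the filter on low counts through the CCl4-treated groups, where it was higher, so its calls against healthy carry that limit. The acute libraries held 0.626, 0.681, 1.72, 0.967 and 2.34 CPM, and the fibrosis libraries 37.8, 42.4, 29.9, 21.4 and 7.99 CPM. Cirrhosis libraries lay at 2.47 to 8.97 CPM with a median of 3.58 CPM. The acute rise was 3.35-fold and its libraries overlapped with the healthy ones (log2 fold change 1.74, SE 0.57, adjusted p = 0.014). The call of this rise was lost in a single fit over all 4 groups (adjusted p = 0.064). At fibrosis Lox was 74.6-fold over healthy (6.22, SE 0.72, adjusted p = 8.78e-06) and in cirrhosis 10.9-fold (3.44, SE 0.52, adjusted p = 0.000237), both without overlap. It was lower in cirrhosis than at fibrosis (log2 fold change -2.70, SE 0.51, adjusted p = 0.000402), although fibrosis replicate 17 fell within the cirrhotic range. Across the groups the order was fibrosis, cirrhosis, acute and healthy, and each neighbour in that order was called different.

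Loxl1 (ENSRNOG00000008680), the family member most tied to elastin, fell at 2 weeks and then rose. Healthy libraries lay at 1.27 to 2.24 CPM (median 1.81 CPM), and acute libraries at 0.490, 0.572, 0.778, 1.04 and 1.10 CPM (log2 fold change -1.13, SE 0.31, adjusted p = 0.0051). The fibrosis libraries held 6.11, 11.6, 3.29, 9.64 and 2.95 CPM (1.83, SE 0.41, adjusted p = 0.00155), and cirrhosis libraries 2.85 to 10.9 CPM with a median of 6.57 CPM (1.85, SE 0.34, adjusted p = 0.000819). All fibrosis and cirrhosis libraries exceeded all healthy ones, and the 2 later groups did not differ from each other beyond their spread (0.07, SE 0.41, adjusted p = 0.886).

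Loxl2 (ENSRNOG00000016758) and Loxl3 (ENSRNOG00000061373), relatives with scavenger receptor domains that act mainly on collagens, fell with the fibre genes. Loxl2 was at 95.3 to 255.9 CPM in healthy libraries, 16.9 to 55.6 CPM in acute, 25.3 to 63.8 CPM in fibrosis and 179.1 to 310.3 CPM in cirrhosis. It changed from healthy by -2.56 (SE 0.31, adjusted p = 1.2e-05) in acute and by -1.91 (SE 0.28, adjusted p = 7.13e-05) in fibrosis, and cirrhosis was not called different (0.20, SE 0.23, adjusted p = 0.48). Loxl3 was at 35.6 to 83.9 CPM in healthy, 1.42 to 3.79 CPM in acute, 1.95 to 4.09 CPM in fibrosis and 14.7 to 27.9 CPM in cirrhosis libraries. Its log2 fold changes were -4.40 (SE 0.32, adjusted p = 1.59e-07), -4.05 (SE 0.31, adjusted p = 2.85e-07) and -1.29 (SE 0.25, adjusted p = 0.00103), so that Loxl3, like Emilin1, remained below healthy in cirrhosis without overlap.

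**Figure D2:**
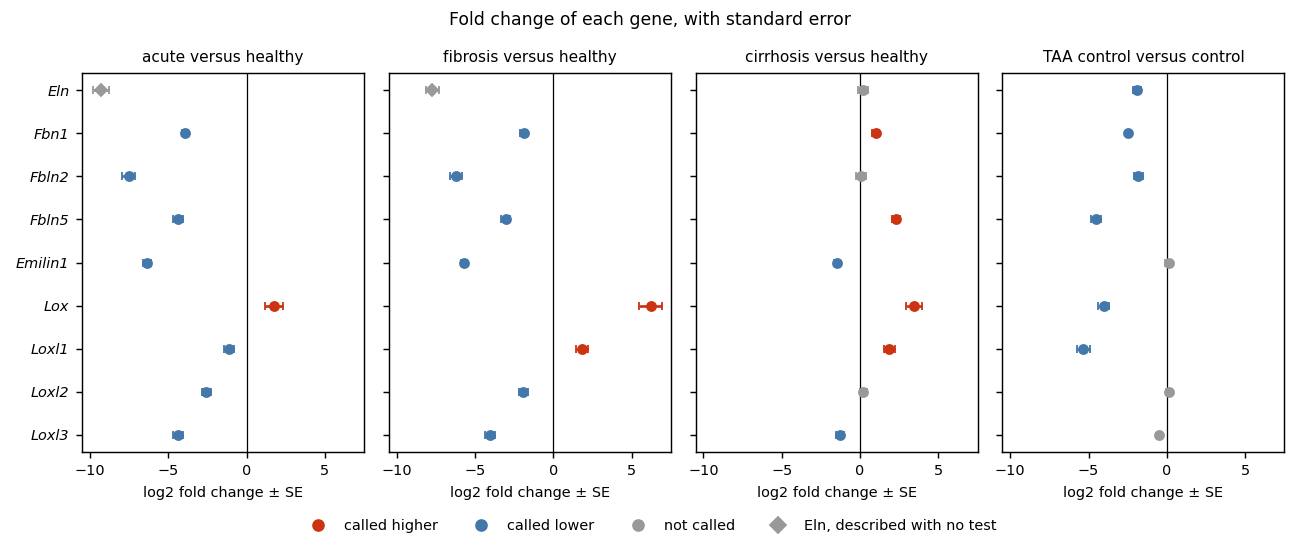
Log2 fold change of each gene with its standard error in 4 comparisons, where red points were called higher, blue points lower and grey points not called. The grey diamonds are Eln in the acute and fibrosis comparisons, given with no test. Lox is on the higher side in all 3 CCl4 comparisons and at -4.03 in the TAA experiment.

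Cirrhosis against healthy split the set. Of the 8 genes, 4 were called higher (Fbn1, Fbln5, Lox and Loxl1), 2 lower (Emilin1 and Loxl3) and 2 neither (Fbln2 and Loxl2), where 51.8% of 14789 genes were called, 27.1% higher and 24.7% lower, and the median log2 fold change of the 8 was 0.59 against 0.07 over all genes. In 6 of the 8 the groups did not overlap, against 27.2% of all genes tested. From acute to fibrosis, 6 of the 8 were higher and 2 were not called, with a median of 1.38. That comparison had the narrowest background, with 11% of 13931 genes called, 10.2% higher and 0.732% lower, and a median over all genes of 0.00. The groups did not overlap in 5 of the 8, against 17.2% of all genes. The largest of these rises were in Lox (4.52, SE 0.81, adjusted p = 0.00673), Loxl1 (3.002, SE 0.54, adjusted p = 0.00674) and Fbn1 (2.11, SE 0.24, adjusted p = 0.00218). Emilin1 moved the least among the called genes (0.67, SE 0.20, adjusted p = 0.038), its groups overlapped, and it lost its call in 7 of the 10 fits that left out 1 library. A single fit over all 4 groups called 3 of the 8 in place of 6, while the share of all genes called fell from 11% to 4.79%. The share also moved with single libraries, to 7.17% without acute replicate 1 and to 15.4% without acute replicate 8. From fibrosis to cirrhosis, 6 were higher, 1 (Lox) lower and 1 (Loxl1) not called, where 63.8% of 15186 genes were called, 34.3% higher and 29.5% lower. Cirrhosis and fibrosis libraries did not overlap in 6 of the 8, against 63.3% of all genes. From acute to cirrhosis all 8 were higher, where 69.3% of 15005 genes were called, 37.5% higher and 31.8% lower, and none of the 8 overlapped, against 65.9% of all genes with no overlap.

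In bulk libraries, fewer cells of a type and less RNA per cell cannot be told apart, and summed levels of markers of other liver cells differed between the groups. Over 10 measured fibroblast markers, the summed level was 144.5 to 547.3 CPM in healthy libraries, 9.26 to 22.1 CPM in acute, 44.6 to 123.2 CPM in fibrosis and 465.8 to 1608 CPM in cirrhosis. Col3a1 alone, at means of 223.5 CPM in healthy and 898.7 CPM in cirrhosis libraries, made up most of the sum in both groups. At fibrosis Col3a1 averaged 22.9 CPM, while Col1a1 averaged 47.6 CPM, against 10.1 CPM in healthy libraries. In acute libraries 7 of the 9 fibroblast markers that passed the filter on low counts were called lower and 2 not called, at fibrosis 4 of 9 were lower, 1 higher and 4 not called, and in cirrhosis 6 of 10 were higher and 4 not called. Over 8 smooth muscle markers the sum was 868.3 to 1392 CPM, 40.2 to 142.3 CPM, 71.8 to 253.6 CPM and 492.4 to 695.5 CPM in healthy, acute, fibrosis and cirrhosis libraries. Smtn alone, at a mean of 966.2 CPM, made up most of the healthy smooth muscle sum. In acute libraries 3 of the 6 smooth muscle markers that passed were lower and 3 not called, and at fibrosis 3 were lower and 3 higher. In cirrhosis 7 passed, with 4 higher, 1 lower and 2 not called. Tagln, for example, averaged 3.40 CPM in healthy, 5.93 CPM in acute, 60.6 CPM in fibrosis and 18.5 CPM in cirrhosis libraries. Over 8 hepatic stellate cell markers the sum was higher in acute and fibrosis libraries. It was 229.9 to 367.1 CPM in healthy, 1315 to 2134 CPM in acute, 1194 to 1601 CPM in fibrosis and 238.5 to 490.8 CPM in cirrhosis libraries. Reln alone, at a mean of 1678 CPM in acute libraries, made up most of that sum, and 6 of the 7 stellate markers that passed there were called lower. The sum of 8 hepatocyte markers was 1367 to 29560 CPM, 153.5 to 948.7 CPM, 1351 to 5359 CPM and 3198 to 15140 CPM in healthy, acute, fibrosis and cirrhosis libraries. Fibrosis replicate 17, the library lowest in Lox, Loxl1 and Loxl2 within its group, was also the lowest there in the fibroblast sum (44.6 CPM) and the smooth muscle sum (71.8 CPM), but it was the highest of its group in Eln (1.11 CPM) and Fbln2 (2.71 CPM). The part of such cells in the levels of the set was not tested.

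**Figure D3:**
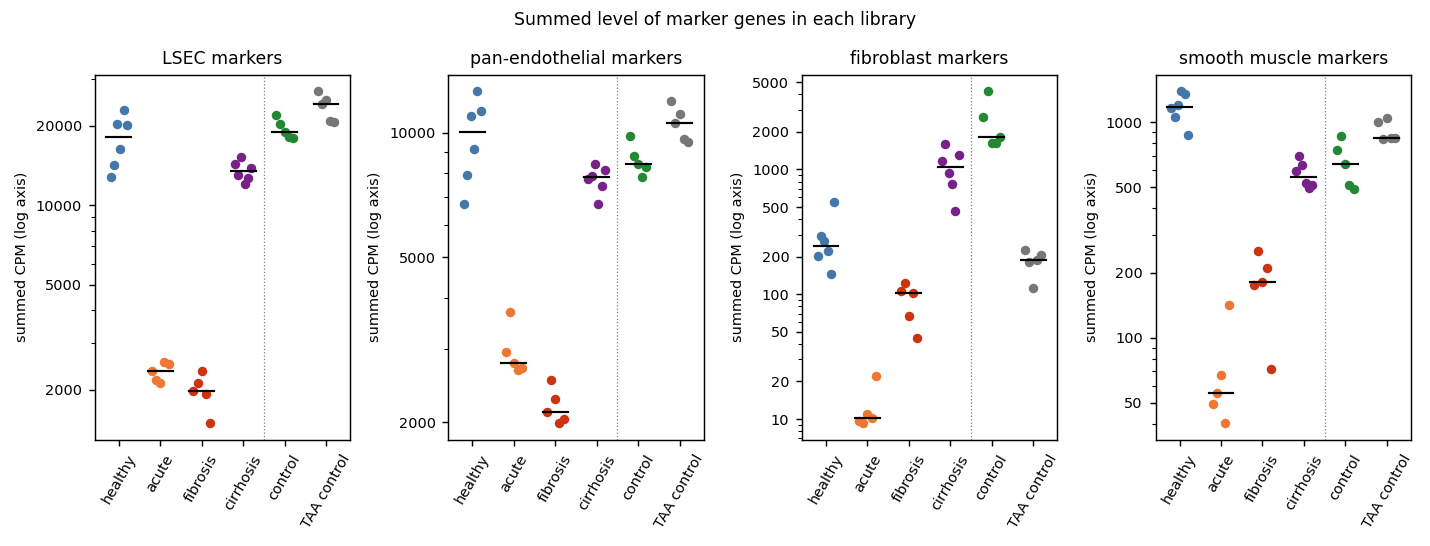
Summed CPM on a log axis of marker genes of LSECs, endothelium in general, fibroblasts and smooth muscle in every library, with 1 point per library, a black line at the group median, and the TAA experiment right of the dotted line. The LSEC sum is at most 2538 CPM in acute and 2357 CPM in fibrosis libraries, while the fibroblast sum reaches 1608 CPM in cirrhosis and 4241 CPM in the group labelled control.

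Genes whose course across the 22 CCl4 libraries was most like that of Eln were sought by the root mean square difference of log2 CPM after centring each gene, over 15577 genes. The closest was Vwf, the von Willebrand factor that endothelial cells store and release, at a difference of 0.56. Its mean level was 2303 CPM in healthy, 10.7 CPM in acute, 25.1 CPM in fibrosis and 2353 CPM in cirrhosis libraries. Fbln2 (0.68, the third closest) and Fos (0.82), an immediate early transcription factor, had the same shape. Hnrnpab (0.65) and Chchd2 (0.79) also came close, but both were listed at 0 in all 10 acute and fibrosis libraries, so their likeness rests on those zeros. The other members came at rank 48 (Emilin1), 309 (Fbln5), 460 (Fbn1), 494 (Loxl3), 1275 (Loxl2), 6779 (Loxl1) and 14907 (Lox).

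Among 18 other genes of elastic fibre assembly, a list of further fibrillins, fibulins, emilins, microfibril proteins, latent TGF-beta binding proteins (LTBPs) and processing enzymes, 13 passed the filter on low counts in acute against healthy, of which 11 were called lower and 2 higher (median -3.45). In fibrosis 14 passed, with 8 lower, 3 higher and 3 not called (median -2.09), and in cirrhosis 15 passed, with 4 lower, 4 higher and 7 not called (median 0.51). The shares of all tested genes called were 73.4%, 70.2% and 51.8% in these comparisons, so the count in cirrhosis was near the background. Ltbp4, which joins elastin to microfibrils together with fibulins, had a mean of 1092 CPM in healthy and 37.3 CPM in acute libraries (log2 fold change -4.83, SE 0.22, adjusted p = 4.95e-09), 44.4 CPM at fibrosis (-4.54, SE 0.21, adjusted p = 6.57e-09) and 537.3 CPM in cirrhosis (-1.002, SE 0.21, adjusted p = 0.00195). Ltbp3, a relative that carries latent TGF-beta, fell the most in acute libraries, from 52.9 to 1.64 CPM (-4.92, SE 0.36, adjusted p = 1.53e-07). Fbln1, another fibulin, was at 0.167 CPM at fibrosis against 3.07 CPM in healthy libraries (-3.81, SE 0.64, adjusted p = 0.000191). With 3 to 10 counts per fibrosis library, Fbln1 passed the filter through the healthy libraries, and its call carries that limit.

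Ltbp2, a microfibril protein that does not bind TGF-beta, went the other way. Its mean was 13.9 CPM in healthy but 100.3 CPM in acute libraries (3.17, SE 0.35, adjusted p = 5.03e-06) and 136.6 CPM at fibrosis. Mfap5, a small microfibril glycoprotein, was called higher at fibrosis (adjusted p = 0.000208), but on few reads. It had 10 to 51 counts per fibrosis library and 0 to 4 counts per healthy library, 3 of the 6 healthy libraries being at 0, and it passed the filter through the fibrosis libraries. In cirrhosis the largest rise was in Mmrn1, multimerin-1, an EMILIN family protein of platelets and some endothelial cells. Mmrn1 lay at 0.143 to 0.787 CPM in healthy libraries and 65.6 to 307.3 CPM in cirrhosis (8.70, SE 0.65, adjusted p = 1.13e-05). With 4 to 23 counts per healthy library, Mmrn1 passed the filter through the cirrhosis libraries, and its call carries that limit. Mmrn2, a relative of Mmrn1 and an endothelial surface protein, was lower in cirrhosis (518.8 against 1252 CPM, -1.25, SE 0.18, adjusted p = 0.000198).

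Of 9 listed proteases that can degrade elastin, 6 passed the filter in each of the 3 comparisons with healthy. In acute libraries 3 were called lower, 1 higher and 2 not, at fibrosis 4 lower, 1 higher and 1 not, and in cirrhosis 2 higher and 4 not. The shares of all tested genes called were again 73.4%, 70.2% and 51.8%. Mmp12, macrophage elastase, was the one that was higher at every stage. Its mean was 2.24 CPM in healthy libraries, 81.9 CPM in acute (5.11, SE 0.55, adjusted p = 3.83e-06), 49.6 CPM at fibrosis (4.38, SE 0.63, adjusted p = 5.3e-05) and 45.2 CPM in cirrhosis (4.24, SE 0.53, adjusted p = 0.000109). The summed level of 8 Kupffer cell markers, macrophages of the liver, was 247.5 to 2278 CPM in healthy, 62.1 to 192.8 CPM in acute, 26.1 to 158.2 CPM in fibrosis and 571.8 to 2055 CPM in cirrhosis libraries, and the part of such cells in the level of Mmp12 was not tested.

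**Figure D4:**
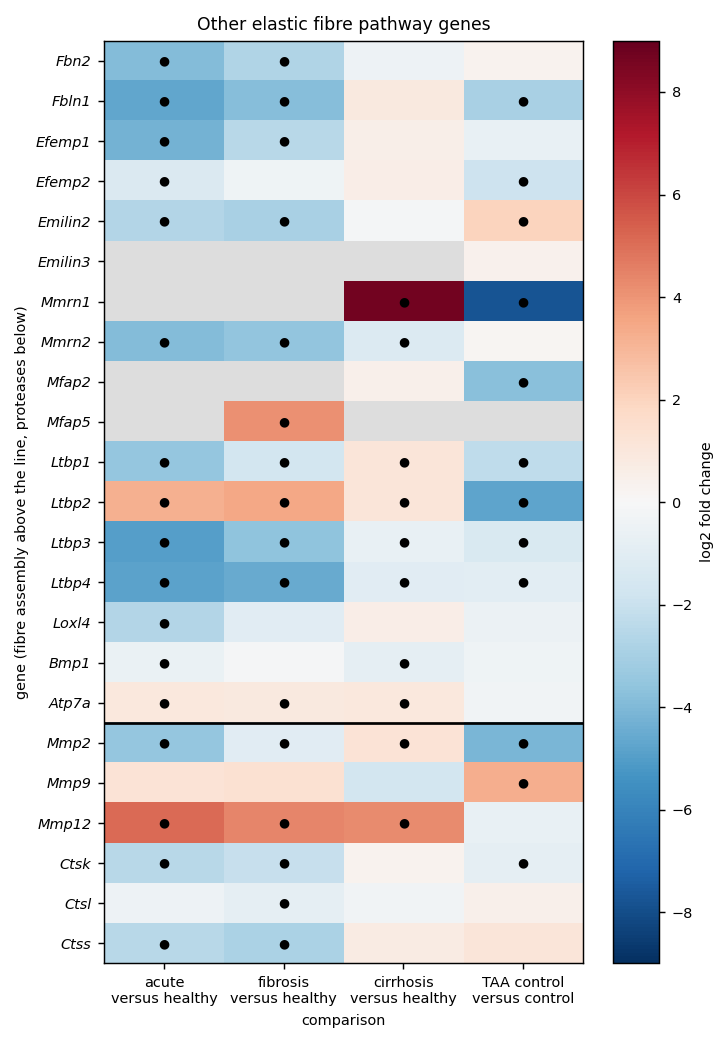
Log2 fold changes of the other elastic fibre assembly genes (above the black line) and of the elastin-degrading proteases (below it) in 4 comparisons, with red for higher, blue for lower, grey for genes that did not pass the filter on low counts and a dot on called genes. The acute column is blue for 11 assembly genes, and Mmrn1 is at 8.70 in cirrhosis and at -7.78 in the TAA experiment.

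In the TAA experiment, 5 of the 8 genes were lower in the group labelled TAA control than in the group labelled control, none was higher and 3 were not called, with a median log2 fold change of -2.15. Of 14376 genes tested, 27.6% were called, 12.7% higher and 14.9% lower, and the median over all genes was 0.03. The groups did not overlap in 6 of the 8, against 35.4% of all genes. Eln could be tested here. It was at 616.8, 478.0, 228.4, 312.1 and 224.7 CPM in control and at 89.1, 109.8, 88.2, 92.4 and 85.8 CPM in TAA control libraries, with no overlap (-1.89, SE 0.25, adjusted p = 0.000187). Fbn1 was at 362.5 to 600.4 CPM against 69.1 to 88.6 CPM (-2.48, SE 0.13, adjusted p = 1.6e-06), and Fbln2 at 110.8 to 287.8 CPM against 41.0 to 61.1 CPM (-1.82, SE 0.27, adjusted p = 0.000376). Neither gene overlapped between the groups.

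The widest differences were in Loxl1, Fbln5 and Lox. Loxl1 was at 17.8, 24.1, 13.2, 19.5 and 18.7 CPM in control and at 0.917, 0.300, 0.231, 0.435 and 0.598 CPM in TAA control libraries, a 40.3-fold lower level (-5.33, SE 0.41, adjusted p = 1.31e-05). With 7 to 27 counts per TAA control library, Loxl1 passed the filter through the control libraries, and its call carries that limit. Fbln5 was at 52.0, 74.4, 41.6, 55.5 and 40.3 CPM against 3.06, 1.502, 1.84, 3.16 and 2.23 CPM (-4.51, SE 0.31, adjusted p = 6.51e-06). Lox was at 15.97, 19.9, 10.2, 16.8 and 12.1 CPM against 1.02, 0.968, 0.593, 1.03 and 0.877 CPM (-4.03, SE 0.35, adjusted p = 1.98e-05). In all 3 genes the lowest control library exceeded the highest TAA control library by far.

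Emilin1, Loxl2 and Loxl3 were not called. Emilin1 was at 393.5 to 788.2 CPM in control and 526.7 to 661.6 CPM in TAA control libraries (0.10, SE 0.21, adjusted p = 0.698), and Loxl2 at 200.9 to 411.5 CPM and 267.9 to 325.6 CPM (0.10, SE 0.19, adjusted p = 0.665). Loxl3 was lower without overlap, at 18.1 to 25.7 CPM against 13.1 to 16.01 CPM (adjusted p = 0.00353), but its log2 fold change of -0.48 (SE 0.11) was under the fold threshold.

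**Figure D5:**
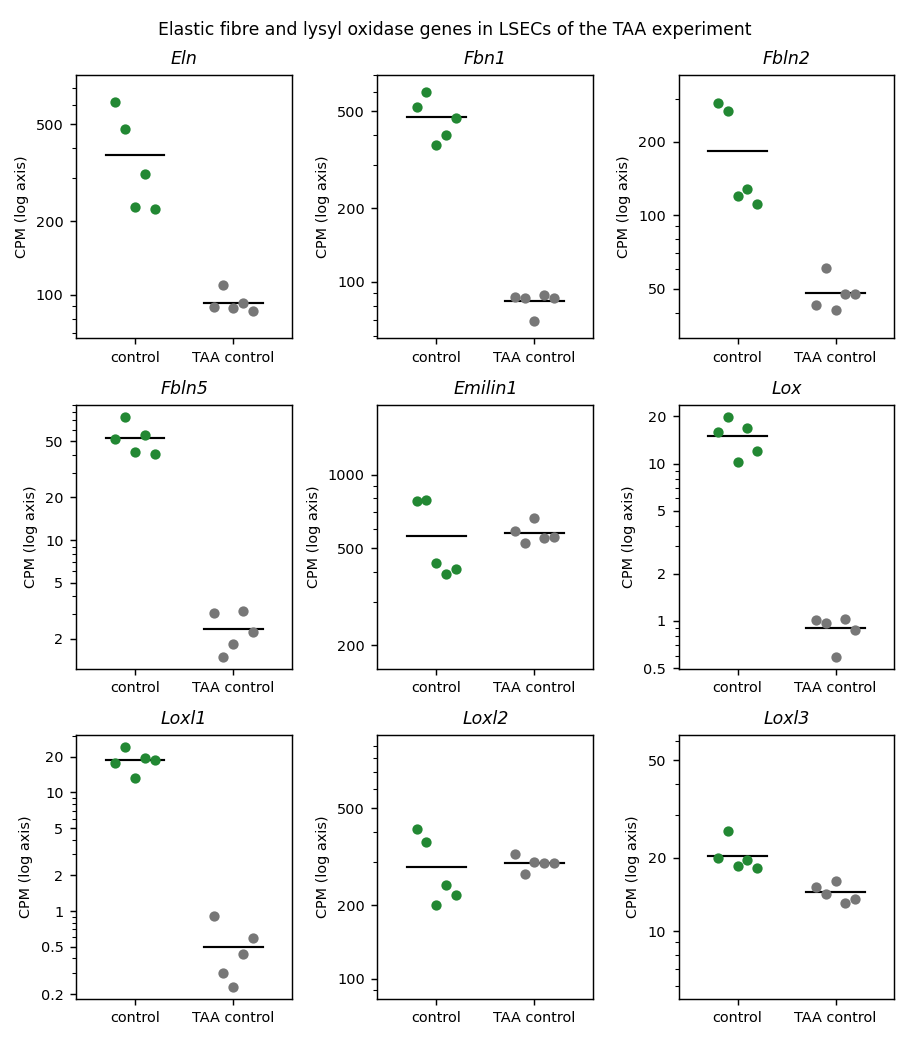
Level of each gene in every library of the TAA experiment, in CPM on a log axis, with 1 panel per gene, 1 point per library and a black line at the group mean. Loxl1, Fbln5 and Lox separate the groups most widely, while Emilin1 and Loxl2 overlap.

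Of the assembly list, 16 genes passed the filter in the TAA experiment, with 8 lower, 1 higher and 7 not called, and of the proteases 6 passed, with 2 lower, 1 higher and 3 not called, beside 27.6% of all genes called. Mmrn1 was at 110.9 to 393.7 CPM in control and 0.300 to 2.55 CPM in TAA control libraries (-7.78, SE 0.98, adjusted p = 0.000149), and Ltbp2 at 42.5 to 85.5 CPM and 1.25 to 3.87 CPM (-4.75, SE 0.37, adjusted p = 1.35e-05). Mmrn1 had 9 to 64 counts per TAA control library and passed the filter through the control libraries. Higher in TAA control were Mmp9, a gelatinase, at 10.1 against 1.10 CPM (3.27, SE 0.39, adjusted p = 0.000106), and Emilin2 at 10.5 against 2.26 CPM (1.98, SE 0.76, adjusted p = 0.0497), whose libraries overlapped. Markers of fibroblasts and of other liver cells also differed. The fibroblast sum was 1618 to 4241 CPM in control and 111.5 to 225.4 CPM in TAA control libraries, with 8 of 10 markers called lower, 1 higher and 1 not called. Col3a1 alone, at means of 2087 CPM in control and 155.7 CPM in TAA control libraries, made up most of both sums. Lower were also 6 of 8 stellate markers (0 higher), 6 of 8 hepatocyte markers (1 higher), 4 of 4 cholangiocyte markers and 4 of 7 smooth muscle markers (1 higher). Of 4 lymphocyte markers 3 were higher and 0 lower. The LSEC marker sum was 18010 to 21880 CPM in control and 20730 to 27030 CPM in TAA control libraries. The part of any of these cells in the lower levels was not tested.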

How the data were processed

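RNA from rat LSECs (polyA selected, TruSeq Stranded mRNA) was sequenced in 32 libraries. Per the labels and the study's methods, the authors mapped reads with STAR to Rnor_6.0 and deposited RSEM expected counts per gene, 1 file per library. RSEM divides reads shared by several genes, so 10.3 to 12.4% of values were not whole. The expected counts were rounded here and analysed in R 4.3.3 with limma 3.58.1 (voom) and edgeR 4.0.16 (TMM, filterByExpr), with 1 fit per pair of groups over all genes kept and Benjamini-Hochberg adjustment. A gene was called at an adjusted p under 0.05 and a fold change above 1.5. The script was tested on simulated counts. CPM values used TMM factors, and a pseudocount of 0.5 before log2. Figures were drawn with matplotlib 3.10.9.

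Groups came from the labels, and the weeks of cirrhosis from the series text. Nothing in the labels says that libraries are separate animals beyond their numbering. The study describes its replicates as independent LSEC isolations for each model and disease stage. The p-values measure the spread between these libraries. Replicates 14 and 15 of TAA control were closer than any other pair (chi-square per degree of freedom 3, elsewhere at least 24.5) but still differed, and were kept apart. Members and gene lists were chosen with earlier results of these data known. Named were all members, the 2 called pathway genes with the largest rise and the 2 with the largest fall in each comparison with healthy and in the TAA experiment, and the 5 genes with a symbol most like Eln. Other genes and markers named were chosen after their values were seen. Alternatives were edgeR's quasi-likelihood test, DESeq2 1.42.0, other scalings, filters, thresholds and weights, a single fit over the CCl4 groups, a pseudocount of 2, a replicate block, averaging replicates 14 and 15, leaving out each library, and, added after seeing the data, leaving out genes listed at 0 throughout a group.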

Additional observations from a re-analysis of the deposited data

Results flagged for a closer look

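In 5 of 54 groups of libraries, 1 library lay far from the rest of its group by Dixon's ratio of gap to range on the log2 CPM scale, where chance gives about 2.7. Fbn1 was lowest in TAA control replicate 13 (69.1 CPM, ratio 0.872). Lox (8.97 CPM, ratio 0.714) and Loxl2 (310.3 CPM, ratio 0.816) were both highest in cirrhosis replicate 6. Loxl2 was lowest in fibrosis replicate 17 (25.3 CPM, ratio 0.718), and Loxl3 was highest in control replicate 2 (25.7 CPM, ratio 0.715).

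For 3 genes the difference from healthy was in opposite directions at different stages, and the difference between those stages was itself called. Fbn1 was lower than healthy in acute and fibrosis libraries and higher in cirrhosis, with a log2 difference of 2.93 between cirrhosis and fibrosis (SE 0.23, adjusted p = 2.57e-07) and 4.96 between cirrhosis and acute (SE 0.28, adjusted p = 7.98e-09). Fbln5 had the same turn, with 5.38 (SE 0.57, adjusted p = 3.01e-06) and 6.71 (SE 0.65, adjusted p = 9.48e-07). The second of these values rests on few acute counts, and Fbln5 passed the filter there through the cirrhosis libraries. Loxl1 was lower than healthy in acute libraries and higher afterwards, with 3.002 between fibrosis and acute (SE 0.54, adjusted p = 0.00674) and 2.998 between cirrhosis and acute (SE 0.45, adjusted p = 4.42e-05).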

How the results depend on the processing

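Of the 163 counts of called genes obtained under another setting, 162 stayed within 1.5 times the reported count, and of 1464 member fold changes none changed sign while called. The exception was fibrosis against acute, where 1 fit over the 4 CCl4 groups called 3 of 8 genes in place of 6 and lost Fbln2 (adjusted p = 0.206), Fbln5 (0.148) and Emilin1 (0.123); the cause was not tested. Leaving out 1 library gave 8 to 8 called genes for acute, 8 to 8 for fibrosis and 6 to 6 for cirrhosis against healthy, 5 to 7 for fibrosis against acute, 7 to 7 and 8 to 8 for cirrhosis against fibrosis and acute, and 5 to 5 in the TAA experiment. Emilin1 in fibrosis against acute also lost its call with edgeR (adjusted p = 0.0571), and Loxl2 gained one there without acute replicate 8 (0.031) or fibrosis replicate 17 (0.0376). Over all genes, the 1529 calls of fibrosis against acute became 746 in the single fit, 2346 with library quality weights, 2826 without a fold threshold and 1011 without acute replicate 1, and the 3970 calls of the TAA experiment became 7139 without a fold threshold. Eln in cirrhosis ranged from -0.04 to 0.37 when 1 library was left out. Scaling by library size alone moved the median of all genes to 0.32 in acute, 0.37 in fibrosis and 0.42 in cirrhosis, and the share of higher among called genes from 48.4 to 58.2%, 50.3 to 60.9% and 52.2 to 71.3%. With the replicate block the counts stayed at 8 (acute against healthy), 6 (cirrhosis against healthy) and 8 (cirrhosis against acute); libraries that share a number did not deviate together (correlations -0.242 to 0.29), so the numbers were not taken as pairs. At 7 to 17 counts per library, the acute levels of Eln and Fbln5 are coarse, and counting error alone is large there. A pseudocount of 2 raised the mean log2 CPM of the low groups, for example to 1.502 for Eln in fibrosis libraries.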
